A study of Mus musculus with 24 samples.

Results

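The respiratory chain subunits of these mouse osteoblast cultures were taken as the protein-coding genes whose symbols begin with Ndufa, Ndufb, Ndufc, Ndufs or Ndufv and a digit, Uqcr, Cox4 to Cox8, Atp5, mt-Nd, mt-Co, mt-Cytb or mt-Atp, without Ndufa4l2. The rule found 93 of the 54232 rows of the count table. Of these, 80 are nuclear and 13 are encoded by mitochondrial DNA. The 93 rows carry 92 symbols, because Atp5o has 2 identifiers. The cultures were grown from the pooled calvariae (skull caps) of newborn mice, either wild type (WT) or of a high bone mass line (HBM). The mutation of the HBM line, the strain and the makeup of the pools are not given in the labels. Each genotype has 3 independent pooled cultures, called batches 18, 19 and 21, with 1 polyadenylated RNA library at days 0, 10, 15 and 21 of osteoblast differentiation, so that 24 libraries form 8 groups of 3. A batch number was read as the same culture followed over the days, which the labels do not state outright.

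The respiratory chain moves electrons from NADH and succinate to oxygen through complexes I to IV and pumps protons across the inner mitochondrial membrane, and ATP synthase (complex V) uses the returning protons to make ATP. Most subunits are encoded in the nucleus and imported. A small core of membrane subunits is encoded on the mitochondrial genome, which is transcribed from both strands as long precursors that are then cleaved into single messages, so its genes have their own transcription and RNA handling. Osteoblasts draw on both glycolysis and respiration while they make matrix.

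By complex, the nuclear members were 35 of complex I, 8 of complex III, 19 of complex IV and 18 of ATP synthase, and the mitochondrial members were 7, 1, 3 and 2. Complex II has no member under the rule. Ndufa4 was counted with complex IV, where its protein sits, and so was Cox7a2l, a factor that joins complexes III and IV. Libraries held 28039095 to 46987734 counts, and mitochondrial genes took 0.692 to 1.60% of them. Levels are given as CPM, counts scaled to a common library size with factors of 0.866 to 1.11. Levels of different genes are compared as RPKM, which also divides by the length of all annotated exons. Sums over members or lists, their ratios, and ratios between single mitochondrial members stay in CPM, without that division. Of the 93 members, 88 (77 nuclear and 11 mitochondrial) passed the filter on low counts and were tested. The 5 others were Cox8c, a testis isoform, and the duplicate Atp5o row, both with no count in any library, Cox7b2 with at most 2 counts, mt-Nd4l with at most 11 and mt-Atp8 with at most 9. In bulk RNA, fewer cells of a type and less RNA per cell cannot be told apart.

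The mitochondrial members fell into separate ranges of level. The most abundant were mt-Co1, the catalytic subunit of complex IV, at a mean of 2684 RPKM over the 24 libraries, and mt-Cytb, the cytochrome b of complex III, at 2222. The complex I subunits mt-Nd1, mt-Nd2, mt-Nd5 and mt-Nd4 stood at 1227, 811, 717 and 613 RPKM. The lowest of these 6 means was 2.64-fold the highest nuclear mean. mt-Nd6, the sole member on the minus strand of the mitochondrial genome, stood at 34.5 RPKM. The other 6 members were near 0: mt-Nd3 at 1.37 RPKM, mt-Co2 at 1.36, mt-Co3 at 1.17, mt-Atp6 at 1.07, mt-Atp8 at 0.49 and mt-Nd4l at 0.34. mt-Co2 and mt-Co3 form the core of complex IV together with mt-Co1, the most abundant member here.

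Of the 6 members near 0, all but mt-Atp8 have near-perfect copies in the nuclear genome. Of all 50-base windows of mt-Co2, 100% occur letter for letter in annotated transcripts of other genes, as do 99.9% of mt-Co3, 99.5% of mt-Atp6, 98.8% of mt-Nd4l and 98.0% of mt-Nd3. The share was 62.2% for mt-Nd4, 51.1% for mt-Co1, 8.19% for mt-Nd2, 7.61% for mt-Nd5 and 0% for mt-Nd1, mt-Cytb, mt-Nd6 and mt-Atp8. The copies lie mainly in a stretch of chromosome 1 from 24611535 to 24616197 (mm10, minus strand). Stretches of the mitochondrial gene and its copy are shown here because a read from them has more than 1 possible source. The mt-Atp6 window is chrM:8047-8106 and the Gm10925 window chr1:24614472-24614531, on the minus strand. The mt-Co2 window is chrM:7133-7192 and the Gm28661 window chr1:24615386-24615445, also minus. Both pairs are identical. The mt-Co1 window is chrM:5787-5846 and the Gm13340 window chr2:22589129-22589188, minus strand, and capitals mark the 4 bases that differ. All are read 5′ to 3′ from the GENCODE M21 transcripts of mm10.
mt-Atp6: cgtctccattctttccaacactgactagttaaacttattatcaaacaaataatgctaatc
Gm10925: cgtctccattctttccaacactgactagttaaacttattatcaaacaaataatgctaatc
mt-Co2: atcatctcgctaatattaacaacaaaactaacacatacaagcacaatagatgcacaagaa
Gm28661: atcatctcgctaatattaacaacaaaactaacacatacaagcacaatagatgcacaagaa
mt-Co1: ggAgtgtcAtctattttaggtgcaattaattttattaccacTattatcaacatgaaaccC
Gm13340: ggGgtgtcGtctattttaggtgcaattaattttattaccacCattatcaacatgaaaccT
Over their whole aligned length, Gm10925 and mt-Atp6 matched at 678 of 678 bases, Gm28661 and mt-Co2 at 681 of 681 and Gm28437 and mt-Co3 at 783 of 783, while Gm13340 had 37 mismatches in the 1545 bases of mt-Co1. mt-Nd4 is matched by Gm28439 over 876 bases without a mismatch, and the rest of it is not covered by that copy. The copies' own rows were low too, with a median of 90.5 counts per library for Gm10925, 88.5 for Gm28661 and 50 for Gm13340. How the counting treated reads with several matching places is not given in the sources used here, and its part in the levels of these genes was not tested. mt-Atp8 lies between mt-Co2 and mt-Atp6, and the search covered annotated transcripts only, not the sequence between the copies. The near-0 values are therefore read as those of the table, not as those of the cells. Of the 80 nuclear members, 45 had no shared 50-base window and 6 had over 30%, with the highest share, 68.5%, in Atp5l.

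**Figure D1:**
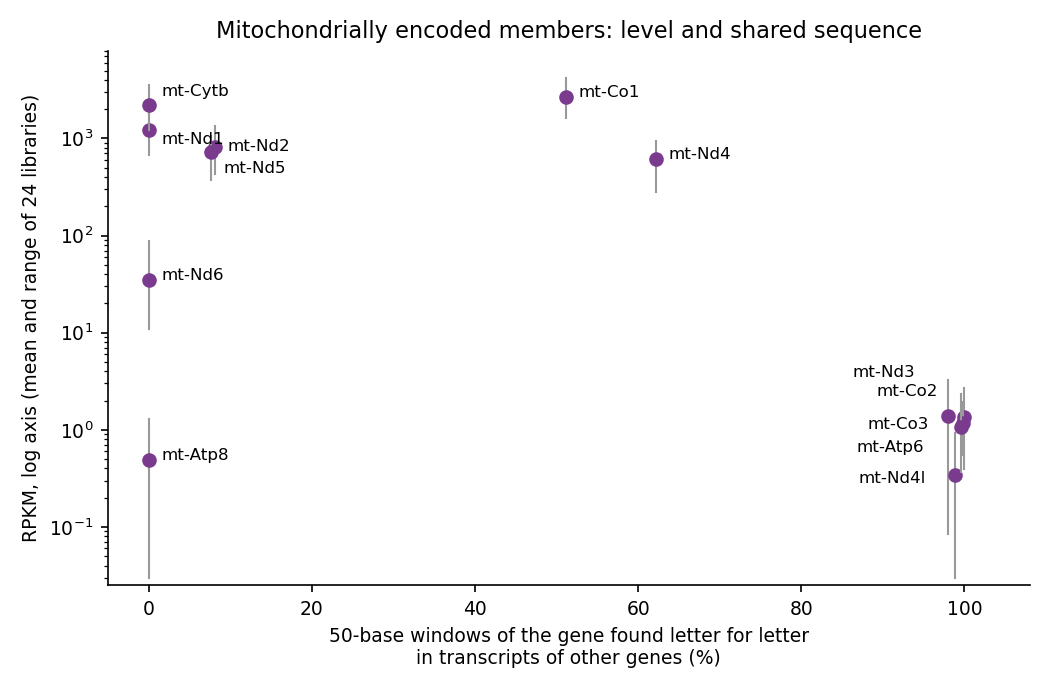
Each point is 1 of the 13 mitochondrially encoded members: its mean RPKM over 24 libraries (log axis, bars from the lowest to the highest library, a lowest value of 0 drawn at the lower end) against the percent of its 50-base windows found in transcripts of other genes. The 5 members at 98.0% or more all stand at 1.37 RPKM or below, while mt-Nd4 and mt-Co1, at 62.2 and 51.1%, stand at 613 and 2684.

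Among the nuclear members the common subunits had a median of 38.7 RPKM. In complex I the highest mean was that of Ndufa2, an accessory subunit, at 135.9 RPKM, and the lowest that of Ndufb2, at 2.86. In complex III, Uqcr10, a small subunit, stood at 111.5 and Uqcrc1, a large core subunit, at 29.8. In complex IV, Cox6a1 stood at 232.7 and Cox7a1, a muscle-type isoform of another subunit, at 0.958. In ATP synthase, Atp5a1, the alpha subunit of the catalytic head, stood at 160.3 and Atp5s, a coupling factor, at 3.62. The exon length used counts every annotated exon, 5628 bases for Ndufb2, which lowers the RPKM of genes with long rarely used exons.

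The common nuclear subunits varied less over the libraries than the mitochondrial ones, apart from 1 library. Over the 24 libraries, the median coefficient of variation was 17.8% for 72 common nuclear members and 29.4% for the 7 well-counted mitochondrial members. Leaving out the WT day 0 library of batch 19 gave 9.86% (5.47 to 23.3%) for the nuclear and 29.6% (25.1 to 53.2%) for the mitochondrial members. That library stood apart. Its summed nuclear members came to 10418 CPM, against 5470 to 6537 in the 23 others, and 74 of the 77 tested nuclear members had a higher value there than the mean of the other WT day 0 libraries, with a median difference of 0.83 in log2(CPM + 1) against 0.00 for all genes tested. The same library was high in cytosolic ribosomal proteins (63573 CPM summed, against 24652 to 45762) and in mitochondrial ribosomal proteins (3358 against 1744 to 2117). The 6 cartilage markers summed to 16545 CPM there, against 723 to 9002, and Col2a1 made up 15858 of these. Acan was also highest there, at 200 CPM, while Col9a1, Comp, Matn1 and Sox9 were higher in other libraries. Gene length moved with that library as well. Over all genes the median difference was 0.22 in the shortest of 3 equal classes of exon length and -0.30 in the longest. For the nuclear members, classed among themselves, it was 0.92 and 0.82. The part of these in the results was not tested, and results that rest on the library are given with and without it.

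In WT batches 18, 19 and 21 the nuclear members summed to 6370, 10418 and 6110 CPM on day 0 and to 5675, 5514 and 5637 on day 10. In the HBM cultures they summed to 6255, 6516 and 6507 CPM on day 0 and to 6439, 6515 and 6144 on day 10. Apart from that library these values cover a narrow band, with the WT day 10 libraries below all the others. The summed mitochondrial level was 6762, 9598 and 11310 CPM at day 0 and 13142, 12852 and 13252 CPM at day 10 in WT. In HBM it was 6276, 9590 and 8959 CPM at day 0 and 14222, 17064 and 8563 CPM at day 10. All WT day 10 libraries lay above all WT day 0 libraries, whereas in HBM batch 21 stayed within the range of day 0. Followed within a culture, the mitochondrial sum was higher at day 10 than at day 0 in 5 of 6 cultures (0.956- to 2.27-fold) and the nuclear sum in 1 of 6 (0.529- to 1.03-fold).

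The log2 ratio of the nuclear to the mitochondrial sum was lower at day 10 than at day 0 in 6 of 6 cultures, a description with no test on a sum over members. The difference was -1.13, -1.34 and -0.34 in WT batches 18, 19 and 21. In HBM it was -1.14, -0.83 and -0.02, so HBM batch 21 hardly changed. In WT the ratio averaged -0.29 ± 0.53 (SD, n = 3) at day 0 and -1.22 ± 0.01 at day 10. In HBM the ratio averaged -0.34 ± 0.30 at day 0 and -1.004 ± 0.47 at day 10. The differences between these means were -0.94 and -0.66, both larger than the pooled SD of 0.38 and 0.39. Without batch 19 of WT day 0 the WT day 0 mean was -0.49 and its difference from day 10 -0.73. At days 15 and 21 the means were -0.73 ± 0.42 and -0.82 ± 0.29 in WT and -0.76 ± 0.42 and -0.92 ± 0.29 in HBM. HBM and WT differed by -0.06, 0.22, -0.03 and -0.10 on days 0, 10, 15 and 21, each less than the pooled SD, and by 0.15 on day 0 without WT batch 19. Within pairs of the same batch the difference was below 0 in 1, 1, 1 and 3 of 3 pairs on these days, from -0.15 to -0.02 at day 21. The nuclear sum alone was higher in HBM in 3 of 3 pairs at day 10 (1.09- to 1.18-fold) and in 1, 2 and 2 of 3 on days 0, 15 and 21. From day 10 to day 21 the mitochondrial sum was higher in 1 of 6 cultures only (0.611- to 1.04-fold). The sums of the 6 well-counted plus-strand genes make up nearly all of the mitochondrial value, since the members with near-perfect nuclear copies add under 1 CPM each on average.

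**Figure D2:**
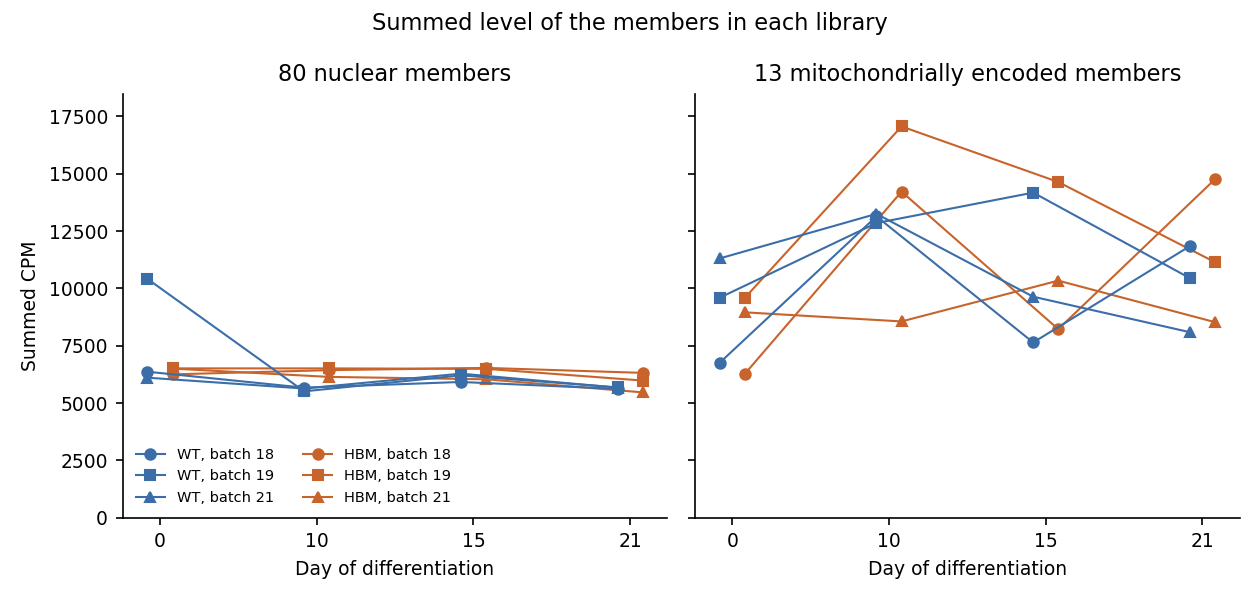
Summed CPM of the 80 nuclear members (left) and of the 13 mitochondrially encoded members (right) by day, 1 line per culture, blue for WT and orange for HBM, with a marker shape per batch. Without the WT day 0 library of batch 19, at 10418 CPM, the nuclear sums cover a 1.20-fold range over 23 libraries, against 2.72-fold for the mitochondrial sums.

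From day 0 to day 10 in WT cultures, nuclear subunits fell and no mitochondrial one passed, and the number that fell varied with the library left out. With edgeR's quasi-likelihood test and Benjamini-Hochberg adjustment over all 16592 genes, 29 of 77 nuclear members fell and 0 rose, and 0 of 11 mitochondrial members passed in either direction (1 at an unadjusted p under 0.05, and 0 with DESeq2). Over all genes tested, 14.1% fell and 12.2% rose. The 29 were 10 of complex I, 4 of complex III, 6 of complex IV and 9 of ATP synthase. The median log2 change was -0.42 for the nuclear members, 0.27 for the mitochondrial members and -0.02 for all genes tested. The mitochondrial medians here and below include mt-Co2, mt-Co3, mt-Atp6 and mt-Nd3, whose values are near 0 in the table. The changes of single mitochondrial members are given further on. Blocked by culture, the fit called 32 nuclear members that fell and 2 that rose, Cox4i2 and Cox8b, against 18.8 and 19.7% of all genes. When the WT day 0 library of batch 19 was left out, 11 nuclear members fell and 2 rose, against 12.3 and 11.3% of all genes, and the nuclear median was -0.05 and the mitochondrial median 0.53. Those that fell were then 6 of complex I, 2 of complex III, 0 of complex IV and 3 of ATP synthase. Leaving out WT batches 18 or 21 of day 0 gave 50 and 57 members that fell, against 12.7 and 16.9% of all genes. Leaving out batches 18, 19 or 21 of day 10 gave 14, 10 and 15, against 8.91, 8.57 and 9.97%. With no filter on low counts 12 fell, against 5.14%. The share of nuclear members that fell was thus 37.7% with that library and close to the share over all genes without it.

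Of the 29 members that fell, 10 passed in each of the 6 fits that leave out 1 WT library of these days. The share of all genes that passed in each of these fits was not counted, so the 10 have no background beside them. Among them are the complex I subunits Ndufa8, Ndufa9, Ndufa10 and Ndufa12, the complex III subunits Uqcrc1 and Uqcrq, and Atp5b, Atp5d and Atp5f1 of ATP synthase. Ndufa8, Ndufa9 and Atp5f1 are outside the rule for named genes and were picked after their values were seen. Uqcrq, a small subunit near cytochrome b, stood at 78.7, 113 and 68.4 CPM in batches 18, 19 and 21 on day 0 and at 52.6, 50.2 and 57.7 at day 10. Uqcrc1 stood at 139, 218 and 128 CPM on day 0 and at 109, 105 and 113 at day 10. In both, every day 0 library lay above every day 10 library. Uqcrq fell by 0.70 on the log2 scale (SE 0.15, adjusted p = 0.0030) and Uqcrc1 by 0.57 (SE 0.14, adjusted p = 0.0053). Ndufa12, an accessory subunit of complex I, fell by 0.62 (adjusted p = 0.0030) and Atp5d, a subunit of the central stalk of ATP synthase, by 0.66 (adjusted p = 0.0036). In the fit without the outlying WT day 0 library these 4 changes were -0.46, -0.29, -0.36 and -0.39, all past the threshold.

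Among the common complex IV subunits, Cox4i1 fell by 0.46 (adjusted p = 0.0221), Cox6b1 by 0.56 (0.0382) and Cox8a by 0.44 (0.0364). None of these 3 passed once the batch 19 library of WT day 0 was left out, with log2 changes of -0.21, -0.11 and -0.17. Leaving out WT batch 19 of day 10 also ended all 3 calls, with adjusted p of 0.0842, 0.1102 and 0.106, and leaving out batches 18 or 21 of day 10 ended those of Cox6b1 (0.0869 and 0.0696) and Cox8a (0.0871 and 0.0643). Cox6a1, Cox7a2 and Cox7b had log2 changes of -0.43, -0.50 and -0.39 and adjusted p of 0.137, 0.0683 and 0.117. Among the members of highest and lowest level, Atp5a1 fell by 0.34 (adjusted p = 0.0466) and kept the call in 1 of 6 fits without 1 library, that without batch 21 of day 0 (0.0074; others 0.0913 to 0.191). Ndufa2, Ndufb2, Uqcr10 and Atp5s had log2 changes of -0.48, -0.18, -0.34 and -0.19 and did not pass.

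In HBM cultures the same step gave fewer calls. Of 77 nuclear members 3 rose and 3 fell, and of 11 mitochondrial members 1 rose, against 14.1% of all genes that rose and 12.4% that fell, so both nuclear shares, 3.90% each, were below those over all genes. The median log2 change was 0.11 for the nuclear members, 0.64 for the mitochondrial members and -0.00 for all genes tested. Of the 29 members that fell in WT, 24 had a value below 0 in HBM and 3 passed. Blocked by culture, 4 nuclear and 2 mitochondrial members rose and 3 nuclear members fell, against 20.5 and 17.7% of all genes. Without HBM batch 18 of day 0, batch 18 of day 10 or batch 19 of day 10 the 7 calls became 4. The calls added by the block were Cox7a1 (adjusted p = 0.0104) and mt-Co2 (0.0338).

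**Figure D3:**
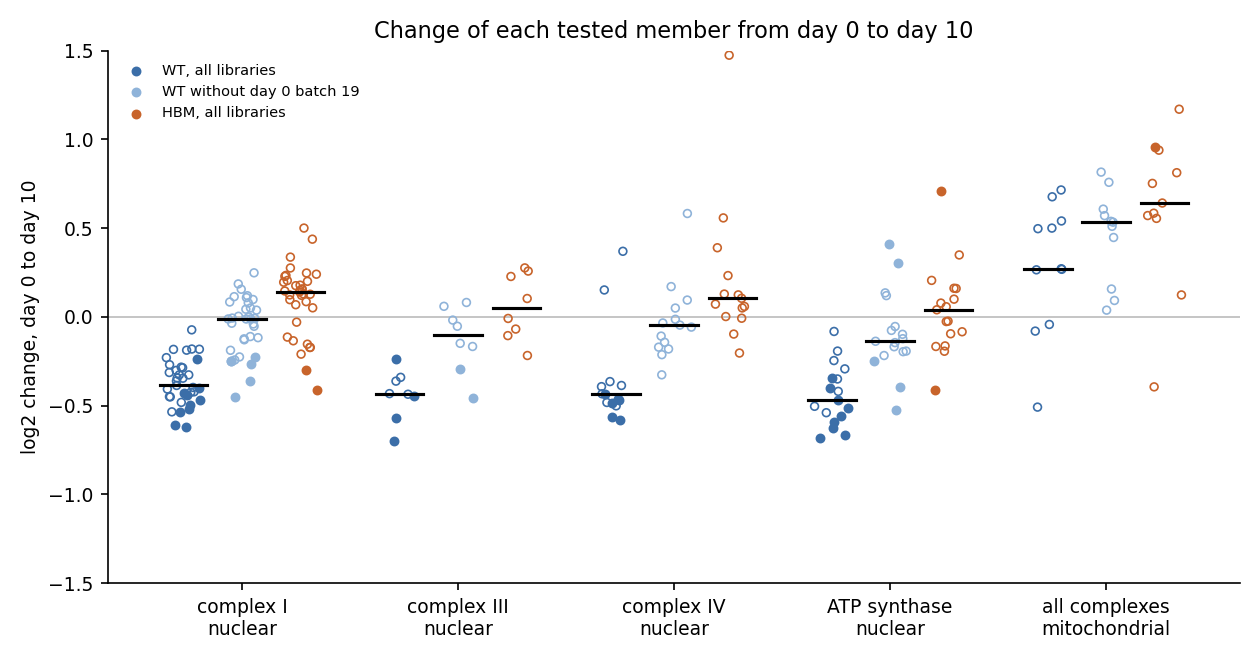
The log2 change from day 0 to day 10 of each tested member, by complex and genome, in WT, in WT without the day 0 library of batch 19 and in HBM. Filled points passed the adjusted p threshold of 0.05, open points did not, and bars are medians; 9 points beyond ±1.5 are not drawn (Cox4i2, Cox8b and Cox6a2 in each of the 3 series). The nuclear medians of WT lie below 0 with all libraries and near 0 without that library, while the mitochondrial medians lie above 0 in all 3 series.

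Ndufs1, Ndufa10 and Atp5b fell in both genotypes. Ndufs1, the iron-sulfur subunit of the electron entry arm of complex I (chromosome 1, 63143596 to 63176833), stood at 77.4, 77.2 and 80.3 CPM in WT batches 18, 19 and 21 on day 0 and at 65.5, 63.8 and 69.8 at day 10. In HBM it stood at 81.7, 90.3 and 87.6 on day 0 and at 68.4, 72.9 and 69.6 at day 10. Day 0 lay above day 10 throughout, and for this gene the WT day 0 library of batch 19 was the lowest of its group. It fell by 0.24 in WT (SE 0.07, adjusted p = 0.0129, and 0.0636 without batch 19 of day 10) and by 0.30 in HBM (SE 0.07, adjusted p = 0.0031).

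Ndufa10, an accessory subunit of complex I (chromosome 1, 92439010 to 92473860), stood at 71.6, 92.1 and 66.2 CPM in WT on day 0 and at 52.5, 50.2 and 48.3 at day 10, and at 75.6, 70.8 and 71.0 and then 57.8, 52.5 and 53.2 in HBM. It fell by 0.61 in WT (SE 0.09, adjusted p = 0.000235) and by 0.41 in HBM (SE 0.09, adjusted p = 0.0041). Atp5b, the catalytic beta subunit of ATP synthase (chromosome 10, 128083273 to 128090391), stood at 870, 1113 and 784 CPM in WT on day 0 and at 562, 580 and 585 at day 10. In HBM it stood at 850, 908 and 842 CPM and then at 656, 677 and 624. The groups did not overlap in either genotype, and it fell by 0.68 in WT (SE 0.11, adjusted p = 0.0003) and by 0.41 in HBM (SE 0.11, adjusted p = 0.0100).

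Over all days, 6 nuclear members had every one of the 6 day 0 libraries above every one of the 18 later libraries: Ndufs1, Ndufa10, Ndufa12, Uqcrc1, Atp5b and Atp5f1. Such a separation was found in 6.74% of all genes tested. Atp5b, for example, ranged from 784 to 1113 CPM at day 0 and from 538 to 677 later. In the other direction 1 nuclear member, Cox4i2, had all day 0 libraries below all later ones, against 7.88% of all genes. No mitochondrial member was separated in either direction.

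Atp5e, the epsilon subunit of the central stalk of ATP synthase (chromosome 2, 174461072 to 174464105), rose in HBM. It stood at 62.2, 68.1 and 85.9 CPM on day 0 and at 118, 123 and 114 at day 10, a log2 change of 0.71 (SE 0.22, adjusted p = 0.0247). The call was lost without batches 18 or 19 of day 0 (0.101 and 0.0762) or of day 10 (0.0602 and 0.0628). In WT it stood at 68.6, 161 and 75.8 CPM on day 0 and at 97.0, 93.7 and 97.8 at day 10. The WT libraries of batches 18 and 21 thus lay below day 10 and that of batch 19 above it. With that batch 19 library left out Atp5e rose in WT by 0.41, as did Atp5k, another small subunit of ATP synthase, by 0.30 (adjusted p = 0.0301). Atp5k is named after its value was seen.

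**Figure D4:**
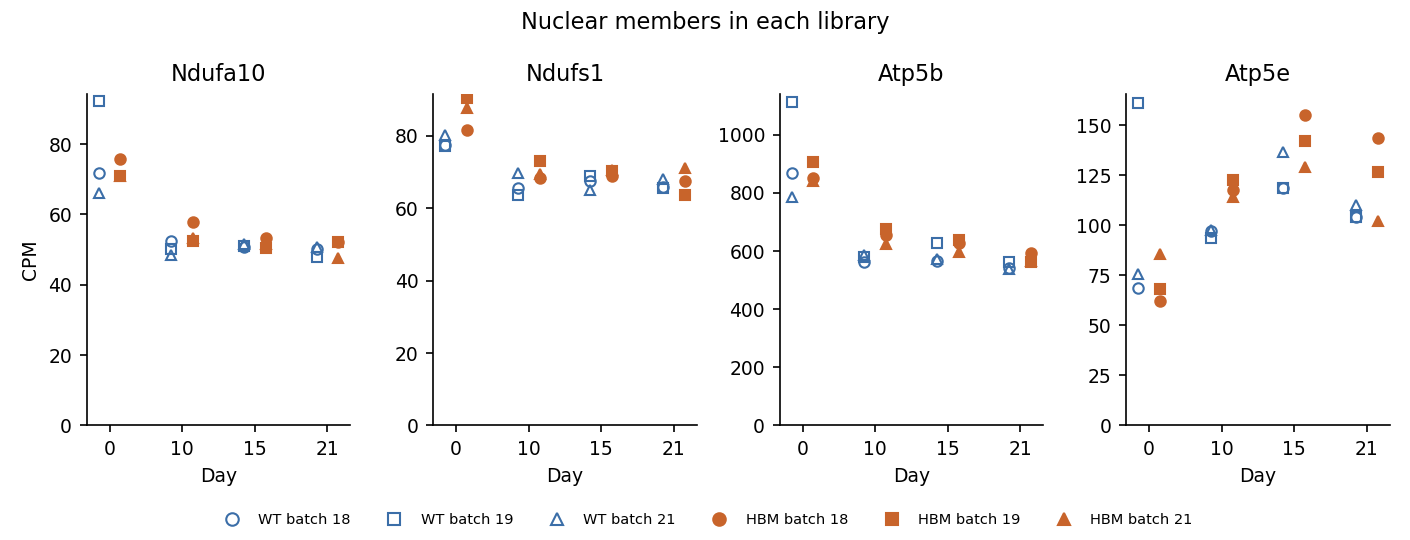
CPM of Ndufa10, Ndufs1, Atp5b and Atp5e in each of the 24 libraries by day, open blue for WT and filled orange for HBM, with a marker shape per batch. The day 0 libraries lie above all later ones for Ndufa10, Ndufs1 and Atp5b, and the WT day 0 library of batch 19 is highest for Ndufa10, Atp5b and Atp5e.

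The mitochondrial members had mostly positive changes from day 0 to day 10. mt-Nd4, a proton-pumping subunit of complex I (chrM:10167-11544, plus strand), stood at 413, 696 and 771 CPM in WT batches 18, 19 and 21 on day 0 and at 1053, 973 and 979 at day 10. In HBM it stood at 386, 554 and 654 CPM and then at 1152, 1258 and 683. Day 0 and day 10 did not overlap in either genotype, although HBM batch 21 went only from 654 to 683. It rose in HBM by 0.96 (SE 0.30, adjusted p = 0.0238), and its WT change of 0.68 did not pass (0.0971). The HBM call was lost without batches 18 or 19 of day 0 (0.102 and 0.0546) or of day 10 (0.0741 and 0.0878). mt-Co1 stood at 2693, 3328 and 4714 CPM in WT on day 0 and at 4835, 4619 and 5702 at day 10, a change of 0.50 (adjusted p = 0.211). In HBM it stood at 2514, 3711 and 3463 CPM and then at 5095, 6403 and 3620, a change of 0.64 (0.106).

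mt-Cytb, mt-Nd2, mt-Nd5 and mt-Nd1 had log2 changes of 0.50, 0.72, 0.54 and 0.27 in WT and of 0.75, 0.81, 0.56 and 0.57 in HBM, and none passed. Of the members near 0, mt-Co3 and mt-Atp6 had changes of 0.27 and 0.27 in WT and 0.58 and 0.94 in HBM, mt-Co2 -0.04 and 1.17, and mt-Nd3 -0.08 and 0.12. mt-Nd6, on the minus strand, had -0.51 in WT and -0.39 in HBM with SE of 0.58 in both, so its direction was within its error. Its level in CPM was 0.586 to 3.72% of that of its plus-strand neighbour mt-Nd5. This share is not per length, and mt-Nd6 has 519 exon bases against 1824 of mt-Nd5, which lowers it. The libraries are of polyadenylated RNA and the strand setting is not given. The part of either in this level was not tested. Within the plus strand, the balance differed by batch and by day. The CPM ratio of mt-Nd1 to mt-Nd4 was 2.09 and 2.15 at day 0 in batch 18, 2.17 and 2.38 in batch 19 and 1.41 and 1.17 in batch 21, WT first. At the later days it was 1.23 to 1.46, 1.16 to 1.60 and 0.92 to 1.22. Day 0 lay above all later days in batches 18 and 19 and overlapped them in batch 21.

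As a description, the mitochondrial members followed each other over the libraries more closely than the nuclear ones did. The median Pearson r of log2(CPM + 1) over the 24 libraries was 0.87 for pairs of the 7 well-counted mitochondrial members. It was 0.71 for nuclear pairs within a complex, 0.68 for nuclear pairs across complexes and 0.10 between nuclear and mitochondrial members. Over the 23 libraries left after dropping batch 19 of WT day 0 these values were 0.87, 0.38, 0.33 and 0.19. The libraries share cultures, batches and depth, and pairs share members.

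Complex IV has subunits with tissue-restricted isoforms, and Cox4i2, Cox8b and Cox6a2 among them had the widest changes of all tested members. Cox4i2, the isoform known from lung and from cells kept at low oxygen (chromosome 2, 152754173 to 152765037), stood at 0.182, 0.483 and 0.167 CPM in WT batches 18, 19 and 21 on day 0 and at 1.92, 3.15 and 1.25 at day 10. In HBM it stood at 0.0546, 0.0779 and 0.0664 CPM on day 0 and at 4.17, 9.28 and 1.06 at day 10. It was higher at day 10 in 6 of 6 cultures. At day 21 the values were 2.23, 10.6 and 2.33 CPM in WT and 4.94, 16.1 and 3.33 in HBM, and batch 19 was the highest of its group in 8 of 8 groups.

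The HBM day 0 libraries held 7 Cox4i2 counts in all and the day 10 libraries 536, a ratio of 68.0 after scaling (exact 95% interval 32.8 to 169.9, counting error only). In WT 31 and 252 counts gave 7.88 (5.41 to 11.8). edgeR's log2 change was 6.11 in HBM (SE 1.33, adjusted p = 0.0029) and 2.93 in WT (SE 1.10, adjusted p = 0.0565, DESeq2 0.0108, blocked by culture 0.000167). The difference between the genotypes in this change was 3.19 (SE 1.70) and did not pass. Later in culture HBM lay above WT in 7 of 9 pairs of the same batch and day, and the genotype difference at day 15, 1.35 (SE 0.96), did not pass. Its common partner Cox4i1 stood at 237, 358 and 221 CPM in WT on day 0 and at 204, 185 and 203 at day 10, with a log2 change of -0.01 in HBM.

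Cox8b, the isoform of heart, skeletal muscle and brown fat (chromosome 7, 140898945 to 140900446), stood at 0, 0.0284 and 0 CPM in WT on day 0 and at 0.181, 0.147 and 0 at day 10. In HBM it had no count at day 0 and stood at 0.690, 0.382 and 0.0235 CPM at day 10. The 43 HBM counts at day 10 were at least 12.7-fold higher than the floor of 3 counts over the day 0 group, and the 170 counts at day 21 at least 51.6-fold. Cox8b rose in HBM (adjusted p = 0.0411), a call kept without batch 21 of day 10 (0.0263) and lost without each of the 5 other libraries (0.0701 to 0.129). In WT, 1 and 13 counts gave a ratio of 12.6 (1.89 to 535.5), and the test gave an adjusted p of 0.265, or 0.0288 when blocked by culture. At day 21 Cox8b stood at 0.734, 1.34 and 0.164 CPM in WT and at 1.67, 2.68 and 0.339 in HBM, and batch 21 was the lowest in 6 of 6 later groups.

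Cox6a2, the heart and skeletal muscle form of Cox6a, stood at 3.27, 0.0284 and 3.78 CPM in WT on day 0 and at 0.155, 0.196 and 0.687 at day 10. In HBM it stood at 3.28, 0.104 and 4.25 CPM, then at 0.286, 0.529 and 0.611, and at day 21 at 7.14, 12.9 and 0.317. Batch 19 went against the other batches at day 0, and neither change to day 10 passed (-2.76 with adjusted p = 0.134 in WT, -2.41 with 0.184 in HBM). Cox7a1, the muscle and brown fat form of Cox7a, was at 0.109 to 1.15 CPM in all libraries, and its HBM change of 1.47 passed only with the block. Cox6b2, a testis form, stood at 3.74 to 24.1 CPM with batch 19 lowest in 6 of 6 later groups, and its changes of 0.37 and 0.56 did not pass. The common partners Cox6a1, Cox6b1, Cox7a2, Cox7b and Cox8a had HBM changes of 0.39, 0.06, 0.13, 0.00 and 0.11, none past the threshold.

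Markers of other cells moved over the same days. From day 0 to day 10, 12.2% of all genes tested rose in WT and 14.1% in HBM. Of the 3 tested brown adipocyte markers, 2 rose in WT and 1 in HBM, and their sum was at 0.519 to 1.72 CPM at day 0, 4.35 to 28.8 at day 10 and 19.8 to 121 at day 21. Dio2 made up 43.5 to 75.9% of that sum at day 0 and 78.9 to 98.3% later, while the defining marker Ucp1 was at 0 in 20 of 24 libraries. Of 10 adipocyte markers 4 rose in WT and 7 in HBM (21.7 to 70.3 CPM summed at day 0, 292 to 651 at day 10). Lpl alone was at 163 to 389 CPM at day 10, while Adipoq was at 0.0470 to 30.3. Of 10 macrophage markers 4 rose in each genotype (43.9 to 1361 and 1673 to 11940 CPM). Of the 6 cartilage markers Matn1, at 10.4 CPM or less in all libraries, rose in WT and in HBM. Their sum was at 858 to 16545 CPM at day 0 and at 723 to 4149 at day 10. Of 7 osteoclast markers 3 rose in WT and 4 in HBM (182 to 291 and 316 to 596 CPM, largely Ctsk). Ctsk alone was at 143 to 222 CPM at day 0 and 244 to 521 at day 10. The calcitonin receptor Calcr was at 0 in 19 of 24 libraries, and Dcstamp reached at most 0.382 CPM at day 10. Of 5 tested skeletal muscle markers 1 rose in WT and 2 in HBM, with sums of 2.62 to 8.27 CPM at day 0 and 3.76 to 6.73 at day 10, and the muscle creatine kinase Ckm was at 0 in 17 of 24 libraries. Of 8 osteoblast markers 5 rose in WT and 7 in HBM (18155 to 34787 and 29580 to 94286 CPM, largely Col1a1), and the osteoblast regulators Runx2 and Sp7 were at 55.2 to 84.8 and 22.5 to 53.8 CPM already at day 0. Without batch 19 of WT day 0, 11.3% of all genes rose in WT. Of the markers, 1 of brown adipocytes, 3 of adipocytes, 1 of macrophages and 3 of osteoclasts then rose. So did 2 of skeletal muscle and 3 of osteoblasts, while Matn1 no longer passed in edgeR (adjusted p = 0.0550). Blocked by culture, 8 adipocyte markers rose in WT and all 10 macrophage markers rose in both genotypes, while 3 skeletal muscle markers rose in HBM. With that block 19.7% of all genes rose in WT and 20.5% in HBM. The part of these cells in the changes of the members was not tested.

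**Figure D5:**
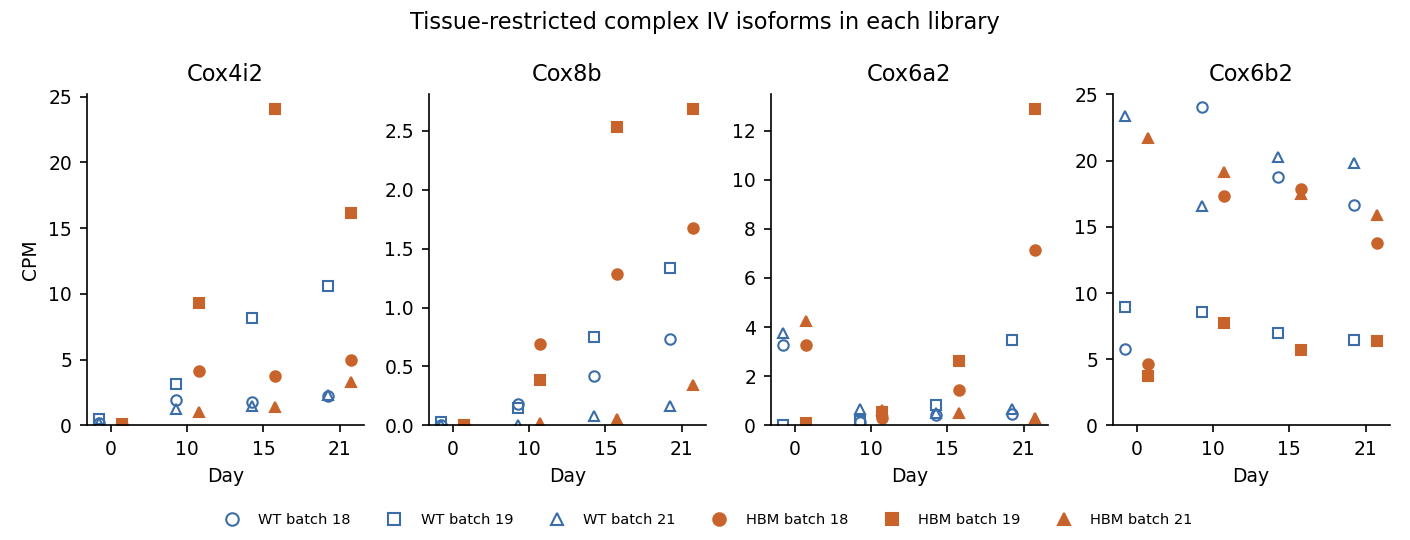
CPM of the complex IV isoforms Cox4i2, Cox8b, Cox6a2 and Cox6b2 in each of the 24 libraries by day, open blue for WT and filled orange for HBM, with a marker shape per batch. Cox4i2 lies at 0.0546 to 0.483 CPM in the 6 day 0 libraries and at 1.06 to 24.04 in the 18 later ones, with batch 19 highest in every group.

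HBM and WT were compared on each day, and no member passed. edgeR called 0 of 88 members on days 0, 10, 15 and 21, with 26, 1, 0 and 2 at an unadjusted p under 0.05, and DESeq2 also called 0. When the 4 libraries of a culture were added up, 0 of 90 members passed, with 1 at an unadjusted p under 0.05. Over all genes these comparisons called 0% in edgeR at the adjusted threshold. The share of all genes at an unadjusted p under 0.05 was not counted. With a term for the batch on each day, which pairs the genotypes, still 0 members were called. Over all genes that fit called 0.127, 1.31, 0.331 and 0.241% on days 0, 10, 15 and 21. DESeq2 called 0.133% of all genes for the summed counts. At day 0 the nuclear median was -0.32, and 0.04 with WT batch 19 left out. At day 10 the nuclear median was 0.18, against a median of 0.00 for all genes. Of the nuclear values at day 10, 76 of 77 were above 0, a share not counted over all genes. At days 15 and 21 it was 0.04 and 0.05. The mitochondrial medians were -0.23, 0.05, 0.09 and 0.15 on the 4 days. Uqcrq, picked for the smallest p of the members at day 10, did not pass (log2 difference 0.36, adjusted p of 1). It stood at 52.6, 50.2 and 57.7 CPM in WT and 66.1, 74.8 and 65.4 in HBM. These groups do not overlap, but the share of all genes separated in this way was not counted.

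The difference between HBM and WT in the change from day 0 to day 10 was tested as well, since more members were called in WT than in HBM. It passed for 0 of 88 members in edgeR and in DESeq2, against 0% of all genes at the same adjusted threshold. In edgeR 33 members had an unadjusted p under 0.05, and the share of all genes at that level was not counted. The median of this difference was 0.50 for the nuclear members, 0.25 for the mitochondrial members and 0.05 for all genes tested. Of the nuclear values 76 of 77 were above 0, a share not counted over all genes. Dropping the batch 19 library of WT day 0 gave 0.15 and 0.06, with 3 members at an unadjusted p under 0.05. From day 10 to day 21 no member passed in edgeR or DESeq2 in either genotype (0 at an unadjusted p under 0.05 in WT and 1 in HBM). Over all genes edgeR called 0% and DESeq2 0.0948% in WT and 0.00962% in HBM, and the fit blocked by culture 0.554 and 0.0964%, again with 0 members. The nuclear medians were 0.03 in WT and -0.08 in HBM, and the mitochondrial medians -0.35 and -0.20.

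Genes that work beside the members were followed by list in the step from day 0 to day 10. Over all genes tested, 14.1% fell and 12.2% rose in WT, and 12.4% fell and 14.1% rose in HBM. Of 10 genes for complex II and electron carriers 6 fell in WT, among them cytochrome c, Cycs, by 0.81 (adjusted p = 0.0016), and Cyc1, the cytochrome c1 of complex III, by 0.56 (0.0039). In HBM 1 of them fell, the succinate dehydrogenase subunit Sdha, by 0.19 (0.0370). Of 40 tested assembly factors 13 fell in WT and 9 fell and 1 rose in HBM. Cox10, which makes the heme precursor of complex IV, fell in both, by 0.64 (0.000230) and 0.62 (0.000324), and Tmem126b, a complex I assembly factor, rose in HBM by 0.39 (0.0431). Of 24 genes for mitochondrial DNA upkeep and RNA 11 fell in WT and 6 in HBM. Tbrg4 fell by 0.76 and 0.52, and Lrpprc, which stabilises mitochondrial messages, fell in HBM by 0.73 (0.0031). The list medians were -0.29 and -0.21, beside mitochondrial messages with medians of 0.27 and 0.64, which include the tested members near 0.

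Of 11 tested regulators 5 fell and 1 rose in WT and 4 fell in HBM. Gabpb1, a subunit of the ETS-type activator of respiratory genes, fell by 0.43 and 0.42, and the coactivator gene Pprc1 by 0.63 and 0.51. The related coactivator Ppargc1a rose in WT by 2.16 (adjusted p = 0.0322), a call lost without batch 19 of WT day 0 (1.75, adjusted p = 0.108), and Yy1 fell in HBM by 0.31 (0.0078). Of 77 mitochondrial ribosomal proteins 40 fell in WT (median -0.43) and 7 in HBM (median -0.08). Of 80 cytosolic ribosomal proteins 69 fell in WT (median -0.78) and 4 in HBM (median -0.31). The HBM shares of both ribosomal lists were below the 12.4% of all genes that fell. Blocked by culture, 11 of each of these lists fell in HBM, against 17.7% of all genes. With the batch 19 library of WT day 0 left out, 12.3% of all genes fell in WT and 11.3% rose. Of the lists, 4 complex II and carrier genes, 8 assembly factors, 7 DNA and RNA genes and 4 regulators then fell. So did 20 mitochondrial and 26 cytosolic ribosomal proteins. The medians of the ribosomal lists were then -0.13 and -0.46, that of the complex II and carrier genes was -0.14, and 3 mitochondrial ribosomal proteins and 1 carrier or complex II gene rose. The 2 mitochondrial ribosomal RNAs did not pass in either genotype.

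The promoters of the nuclear members were searched for letters bound by known activators of respiratory genes. The search was prompted by the 29 members that fell from day 0 to day 10 in WT with all libraries. Without batch 19 of WT day 0, 11 nuclear members fell and 2 rose, while 12.3% of all genes fell. In HBM as many nuclear members rose as fell. The shared direction thus depended on that library and was not seen among the HBM calls. RefSeq promoters (GRCm38.p6, 250 bases before to 50 after the start) were matched for 65 of 79 nuclear symbols, and both strands were searched. The core of the NRF1 site, GCATGCGC, was found in 9 of 65 (13.8%), against 3.05% of all 27025 genes with a promoter. The YY1 letters AAGATGGCG were found in 7 (10.8% against 1.64%), the ETS letters CCGGAAGT in 5 (7.69% against 4.31%) and the estrogen-related receptor letters TCAAGGTCA in 1 (1.54% against 0.466%). Of the 7 YY1 matches 6 begin after the start, against 53.2% of the matches in all promoters. Of the 9 promoters with the NRF1 letters, 5 hold them on both strands, as overlapping matches that span 10 bases. The NRF1 letters begin after the start in 1 of the 9, that of Uqcrc1. The promoters of Uqcrc1 (chr9:108936398-108936697, plus strand) and Ndufa8 (chr2:36049289-36049588, minus strand) show the NRF1 letters (on both strands in Uqcrc1) and that of Ndufa9 (chr6:126849095-126849394, minus strand) a YY1 match, in capitals. They were picked because they hold a match and are among the 10 members that fell in WT in every fit without 1 library.
Uqcrc1: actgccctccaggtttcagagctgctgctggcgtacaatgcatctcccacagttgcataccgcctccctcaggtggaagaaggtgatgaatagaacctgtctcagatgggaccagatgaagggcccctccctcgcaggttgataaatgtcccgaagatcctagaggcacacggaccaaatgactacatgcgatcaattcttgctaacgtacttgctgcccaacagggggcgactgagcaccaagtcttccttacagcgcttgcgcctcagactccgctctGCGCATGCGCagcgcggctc
Ndufa8: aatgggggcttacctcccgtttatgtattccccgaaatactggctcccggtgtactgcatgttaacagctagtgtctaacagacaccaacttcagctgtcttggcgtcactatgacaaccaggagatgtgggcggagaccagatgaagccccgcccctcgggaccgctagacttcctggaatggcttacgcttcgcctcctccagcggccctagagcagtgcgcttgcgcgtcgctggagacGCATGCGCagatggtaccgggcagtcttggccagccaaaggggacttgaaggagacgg
Ndufa9: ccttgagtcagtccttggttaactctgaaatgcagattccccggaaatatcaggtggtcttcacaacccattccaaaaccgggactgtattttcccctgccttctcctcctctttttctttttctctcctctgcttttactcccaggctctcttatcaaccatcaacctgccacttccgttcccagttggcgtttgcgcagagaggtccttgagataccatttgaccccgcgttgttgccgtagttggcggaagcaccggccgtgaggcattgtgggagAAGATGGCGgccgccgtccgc
Ndufa10, Ndufa12, Atp5b, Atp5d and Atp5f1 also fell in WT in every such fit. Their promoters, and those of Atp5e and Cox8b, hold none of the 4 sets of letters in this window. No promoter was matched for Uqcrq, which fell in every such fit too. A match is a description of the sequence and says nothing of binding in these cultures.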

How the data were processed

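Polyadenylated RNA of 24 libraries was sequenced. The deposited table holds counts of reads per gene, whole numbers per the file header and values. The tools named in the submitters' processing notes are cutadapt 3.4, STAR 2.7.8a and, from Subread 2.0.1, featureCounts, on the build mm10. Not given in the sources used here are the strand setting, the annotation release and how reads with several matches were treated. Of 54232 rows, 54164 matched GENCODE M21 (mm10), which gave symbols, coordinates and union exon lengths for RPKM. The counts carry no molecular identifiers, so intervals cover counting error only.

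In R 4.3.3, edgeR 4.0.16 (TMM factors, its low-count filter, quasi-likelihood F test, 1 model of 8 groups) was fitted to all genes, with Benjamini-Hochberg adjustment over 16592 genes (18387 for counts summed over days) and a threshold of 0.05. The filter kept 88 members. DESeq2 1.42.0, RLE factors, no filter, library sizes without mitochondrial genes, a block and leaving out each library were the alternatives. For changes over days the block was the culture. For HBM against WT it was the batch of each day, or the batch alone for summed counts. The main test was also tested on simulated data. The p-values measure the spread between 3 pooled cultures, and days of 1 culture entered as separate libraries.

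Batch numbers pair the cultures: per the labels they are batches, and WT and HBM libraries of the same batch and day deviated from their group means together (r across genes 0.542 to 0.815 in 12 pairs, at most 0.127 for different batches). Named genes are all mitochondrial members, per comparison the 6 nuclear calls of smallest p in each direction, the complex IV isoforms with their partners, the highest and lowest nuclear RPKM per complex and up to 3 calls of each list and direction. The members and lists were chosen with earlier results of these data known. Not every member that passed a test is named in the text, and some single values are not reported here.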

Additional observations from a re-analysis of the deposited data

How the results depend on the processing

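From day 0 to day 10, 29 members were called in WT and 7 in HBM. In WT the number was 12 with no low-count filter, where more genes were tested, 30 with DESeq2 and 25 with RLE factors, and it ran from 10 to 57 when 1 library was left out. In HBM DESeq2 gave 8, RLE factors 7 and leaving out 1 library 4 to 10. Over all genes the main fit called 4349 of 16592 in WT and 4404 in HBM. DESeq2 called 5040 and 5059 of 18405 genes, and RLE factors 4249 and 4349 of 16592. With 1 library left out, 2866 to 5485 genes were called in WT and 2809 to 4415 in HBM. With no low-count filter the WT call took in 3313 of 31212 genes. With the culture as a replicate block 34 members were called in WT and 9 in HBM, against 6388 and 6342 of all 16592 genes. The block changed no call of a member beyond those given with the results. When 1 library was left out, the WT log2 changes ran from -0.30 to 0.41 for Atp5e and from -0.52 to 0.30 for Atp5k, with the highest values without day 0 batch 19 and the lowest without day 0 batch 18. Each other comparison called 0 members under all alternatives. Of 418 values of called members under alternatives, 313 stayed past the threshold in the same direction, 103 lost it and 2 reversed. The log2 ratio of nuclear to mitochondrial sums kept its differences within 1 pooled SD of the values given. Leaving out a library in each list outside the members was chosen after seeing the data. Groups of 3 limit all calls, and the 6 mitochondrial members near 0 are limited by their low counts.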
